A study of Homo sapiens with 4 samples.

Results

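Long non-coding RNA transcripts with enough reads to be measured one by one were described in H1299, a human cell line established from a non-small-cell lung cancer, with and without inorganic mercury. The members were chosen by the raw counts and by annotation alone. A transcript was taken when GENCODE 44 on GRCh38 gives lncRNA as the type of both the transcript and its gene, when its mean over the 4 columns of the table was at least 50 counts, and when its symbol was outside a set of well-known abundant genes (SNHG genes, GAS5, EPB41L4A-AS1, MALAT1, NEAT1, NORAD, TUG1, KCNQ1OT1 and OIP5-AS1). This left 447 transcripts of 406 genes, out of 47709 long non-coding RNA transcripts under the same exclusions, of which 6794 had a count in any column, and out of 5542 transcripts of all kinds that reached this mean. Because the mean over both groups chose the members, their overall level is a description and not a finding.

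Poly-A RNA was sequenced after 48 h in 2 groups of 2 columns each. One group received 5 μM HgCl2 and the other the solvent, 0.6% EtOH; the treatment text of the labels gives 5 μM for all 4 samples, and the division of the paper is used here. Total counts were 4720978 to 5053120 per column, and the members held 1.60% of them in each EtOH column and 1.75% in each HgCl2 column.

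The columns of a group were compared before they were used. Over transcripts whose pair of columns added up to at least 20 counts, the variance of the difference between columns was 0.504 times that of counting noise for EtOH and 0.516 times for HgCl2, and over the members it was 0.548 and 0.565 times. Between EtOH replicate 1 and HgCl2 replicate 1 it was 31.8 times over all transcripts and 22.8 times over the members. The pair of columns in a group thus differed by less than sampling noise and was taken as 1 sample. No difference between the groups has a replicate check, and p-values are not given. The intervals beside log2 fold changes are exact 95% Clopper-Pearson intervals on mean counts, and cover counting error only. For the labelled cell type, the summed counts of VIM were 620 and 628 with EtOH and 501 and 511 with HgCl2, those of the keratin KRT18 were 18 to 31, and those of KRT8 were 53 and 58 against 4 and 4. KRT19, the leukocyte marker PTPRC and the erythroid marker HBB were listed at 0 in all 4 columns, the endothelial marker PECAM1 had 1 to 5 counts, and the fibroblast marker COL1A1 had 13 and 18 against 3 and 4. The part of these differences in the results below was not tested.

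Long non-coding RNAs are transcripts of RNA polymerase II that are spliced and polyadenylated much like messenger RNA but code for no known protein. Many lie beside, opposite or between protein-coding genes, and some start from the same promoter as a coding gene and run the other way. A few act on transcription or splicing in the nucleus or carry microRNAs and small nucleolar RNAs in their introns, while for most no function is known, and many are removed quickly by the nuclear exosome. In total RNA of a culture, less RNA per cell and fewer cells that hold the RNA cannot be told apart.

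The start regions of 6 members at the ends of the range of change are shown because their raised or lowered counts are described next. Each runs from 250 bases before the annotated start of the transcript to 50 bases after it on GRCh38, 5′ to 3′ on the strand of the transcript. TPTEP1, LINC00662 and GLIPR1-AS1 were higher in HgCl2, and CRIM1-DT, LCDR and BAZ1A-AS1 were lower. Capitals mark matches on either strand to 4 motifs of stress-responsive factors, namely the core of the metal response element (TGCACNC or TGCGCNC), the core of the antioxidant response element (TGACNNNGC), a heat shock element (GAANNTTC) and the core of the hypoxia response element (ACGTG).
TPTEP1, chr22:16601794-16602093, plus strand: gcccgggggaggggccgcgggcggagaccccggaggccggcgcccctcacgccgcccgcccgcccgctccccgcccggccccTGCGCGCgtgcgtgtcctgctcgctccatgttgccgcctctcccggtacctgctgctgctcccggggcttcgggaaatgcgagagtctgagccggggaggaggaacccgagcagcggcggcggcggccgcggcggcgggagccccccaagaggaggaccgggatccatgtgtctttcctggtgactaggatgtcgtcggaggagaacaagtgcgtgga
LINC00662, chr19:27793654-27793953, minus strand: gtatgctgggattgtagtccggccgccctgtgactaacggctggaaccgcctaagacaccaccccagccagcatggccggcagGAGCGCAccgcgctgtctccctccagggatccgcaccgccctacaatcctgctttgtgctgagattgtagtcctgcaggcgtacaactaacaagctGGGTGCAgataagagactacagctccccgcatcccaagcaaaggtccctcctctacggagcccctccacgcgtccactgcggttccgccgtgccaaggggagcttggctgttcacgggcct
GLIPR1-AS1, chr12:75489771-75490070, minus strand: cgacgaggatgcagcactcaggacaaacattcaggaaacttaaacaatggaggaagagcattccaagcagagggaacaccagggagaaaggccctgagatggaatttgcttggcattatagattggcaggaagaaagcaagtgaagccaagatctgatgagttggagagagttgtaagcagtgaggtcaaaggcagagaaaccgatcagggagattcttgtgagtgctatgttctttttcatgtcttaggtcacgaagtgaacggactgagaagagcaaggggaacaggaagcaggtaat
CRIM1-DT, chr2:36355422-36355721, minus strand: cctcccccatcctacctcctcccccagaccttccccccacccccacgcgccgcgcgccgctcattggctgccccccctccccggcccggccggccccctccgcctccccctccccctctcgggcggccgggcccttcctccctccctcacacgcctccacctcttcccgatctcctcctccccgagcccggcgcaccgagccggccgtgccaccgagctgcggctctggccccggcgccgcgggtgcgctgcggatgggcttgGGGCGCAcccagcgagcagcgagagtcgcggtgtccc
LCDR, chr20:18793828-18794127, plus strand: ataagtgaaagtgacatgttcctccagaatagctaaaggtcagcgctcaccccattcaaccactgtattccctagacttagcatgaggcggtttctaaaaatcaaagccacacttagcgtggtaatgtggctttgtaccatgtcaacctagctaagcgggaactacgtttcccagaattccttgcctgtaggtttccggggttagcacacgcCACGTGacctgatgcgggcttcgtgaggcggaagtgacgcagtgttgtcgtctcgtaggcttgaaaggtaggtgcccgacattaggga
BAZ1A-AS1, chr14:34874093-34874392, plus strand: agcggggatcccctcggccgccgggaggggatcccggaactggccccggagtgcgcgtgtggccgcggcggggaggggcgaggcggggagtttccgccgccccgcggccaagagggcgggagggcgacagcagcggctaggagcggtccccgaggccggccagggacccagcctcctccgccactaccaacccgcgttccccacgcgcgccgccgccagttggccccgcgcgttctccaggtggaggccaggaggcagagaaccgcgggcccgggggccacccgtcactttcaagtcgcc
TPTEP1 and CRIM1-DT each held 1 metal response element core, although they moved in opposite directions, and LINC00662 held 2. LCDR held 2 hypoxia response element cores, which are the same 6 letters read on both strands. GLIPR1-AS1 and BAZ1A-AS1 held none of the 4 motifs.

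Over all members, the metal response element core was found in 139 of 447 start regions (31.1%), in 16 of the 67 members at least 2-fold higher (23.9%) and in 17 of the 49 at least 2-fold lower (34.7%), against 29.3% of 27305 RefSeq promoters of the same length. The antioxidant response element core was in 14.1% of the members, 8.96% of the higher and 20.4% of the lower ones, against 13.6% of the RefSeq promoters. The heat shock element was in 5.82%, 7.46% and 6.12% against 6.87%, and the hypoxia response element core in 18.6%, 17.9% and 18.4% against 21.6%. The shares over all members thus lay close to those of promoters in general for each of these letter strings. A match is a string of letters and not a shown binding site.

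The members moved in both directions. Of the 446 members in the edgeR fit, 67 were at least 2-fold higher in HgCl2 (15.0%) and 49 at least 2-fold lower (11.0%). Among all 5524 transcripts in the fit with a mean of at least 50 counts the shares were 11.7% and 6.17%, among the 3576 protein-coding ones 7.38% and 5.48%, and among all 17547 transcripts in the fit, many of them with few counts, 19.2% and 34.1%. The member left out of the fit was HELLPAR (ENST00000626826), a transcript of 205012 bases whose mean FPKM was not above 1, with 118 and 119 counts under EtOH and 58 and 65 under HgCl2. The median log2 fold change of the members was 0.20, with quartiles of −0.46 and 0.75, and that of all well-counted transcripts was also 0.20, with quartiles of −0.25 and 0.60. The members thus had the same centre as all well-counted transcripts. Their wider quartiles stood beside fewer counts, with a median mean count of 101 against 192.5. At matched counts, the quartiles from 50 to 70 counts were −0.87 and 0.98 against −0.58 and 0.94 of all transcripts. They were −0.46 and 0.85 against −0.50 and 0.83 from 70 to 100 counts, and −0.23 and 0.72 against −0.33 and 0.69 from 100 to 200. From 200 to 500 counts they were −0.42 and 0.41 against −0.22 and 0.54, and from 500 up −0.05 and 0.73 against −0.04 and 0.47. The members were thus wider from 50 to 70 counts and from 200 counts up, and not between. The share of the counts in this was not tested.

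Relative to that shared median of 0.20, 50 members (11.2%) were at least 2-fold higher and 72 (16.1%) at least 2-fold lower, against 7.51% and 9.21% of all well-counted transcripts. The split between higher and lower members therefore depended on where the scale was centred. Of the members past 2-fold, 57.8% were higher in the fit used here, 43.3% when at least 10 counts were asked of every column, 69.5% without a filter on low values and 75.0% on log2(FPKM + 1).

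Both HgCl2 columns lay above both EtOH columns in 214 members and below them in 196, and the columns overlapped in 37. As shares of the members these are 47.9% higher and 43.8% lower, against 48.95% and 41.5% of all transcripts at or above that mean count. The counting interval of the log2 fold change lay above 0 in 188 members, below 0 in 124 and included 0 in 135. For 213 members the change was within 1.5-fold either way, 13 were at least 4-fold higher, and 6 at least 4-fold lower.

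**Figure D1:**
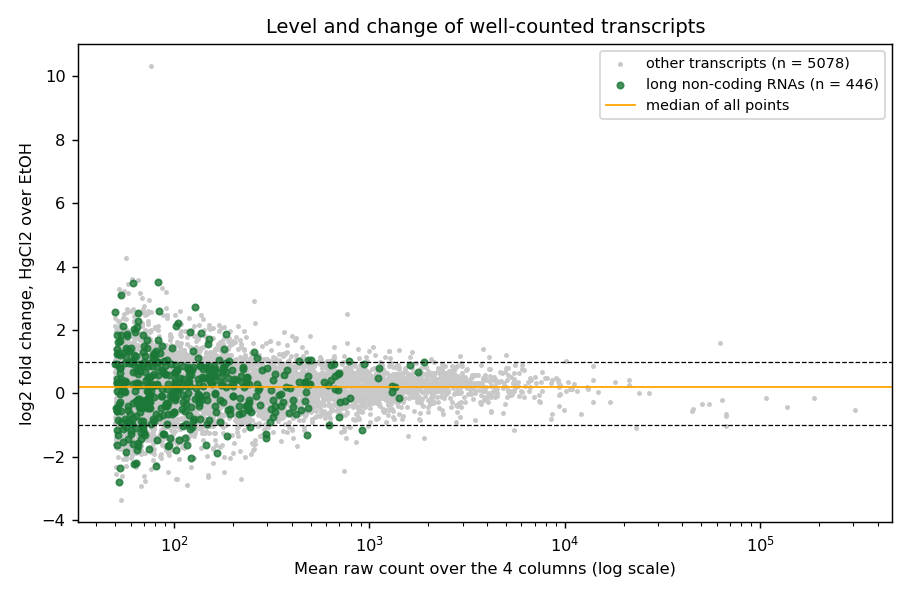
Log2 fold change of HgCl2 over EtOH (vertical) against the mean raw count over the 4 columns (horizontal, log scale) for the 446 long non-coding RNAs in the fit (green) and the other 5078 well-counted transcripts (grey, mean of 50 counts or more), 1 point per transcript. Dashed lines mark 2-fold, the orange line marks the median of all points at 0.20, and most green points past 2-fold lie at the left, under 100 counts.

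The level of a member set how far its value could be read. The mean counts ran from 50 to 1891, with a median of 101, and 220 members had a mean under 100 counts. Of the members at least 2-fold higher 47 of 67 had a mean under 100 counts, and of those at least 2-fold lower 33 of 49. Between 50 and 70 counts 24.6% of the members were at least 2-fold higher and 19.05% lower, against 22.9% and 14.6% of all transcripts of that level. From 70 to 100 counts the shares were 17.2% and 9.68% of the members against 19.6% and 9.99% of all, from 100 to 200 counts 10.2% and 8.59% against 14.4% and 6.998%, and from 200 to 500 counts 6.94% and 5.56% against 7.31% and 3.32%. From 500 counts up, 2 of 27 members were higher (7.41%) and 1 lower (3.70%), against 2.52% and 0.995% of all transcripts. The members were thus more often 2-fold higher than all transcripts of their level in the lowest and highest bins alone, and more often lower in all bins but that from 70 to 100 counts, by differences that were not tested. A mean over both groups lets a transcript in through 1 group alone. In 330 members both group means reached 50 counts, and of these 24 were at least 2-fold higher and 14 lower. The matching shares of all transcripts were not computed. Another 57 members passed through HgCl2 alone and 60 through EtOH alone and so had to differ. Of the 67 higher members 43 passed through HgCl2 alone, and of the 49 lower ones 35 through EtOH alone.

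The 3 transcripts nearest each side of the minimum of 50 counts are given as examples, and are too few to compare the spread. The members just inside were ENSG00000287899 with a mean of 50 counts, SCAMP1-AS1 with 50 counts (35, 38, 64 and 63 in EtOH replicates 1 and 2 and HgCl2 replicates 1 and 2) and LINC02605 with 50.5 counts (59, 63, 37 and 43). Just outside were ENSG00000287411 with 49.75 counts (10, 10, 92 and 87), ZNF790-AS1 with 49.75 counts (51, 55, 53 and 40) and ENSG00000291075 with 49.5 counts (52, 41, 54 and 51).

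The largest rise was that of ENSG00000260947 (ENST00000566968, chr9:33697459-33700986, plus strand), an unnamed single-exon transcript of 3528 bases that overlaps no protein-coding gene. The EtOH columns held 12 and 17 counts and the HgCl2 columns 144 and 159, a log2 fold change of 3.52 (interval 2.75 to 4.42). TPTEP1 (ENST00000426585, chr22:16602044-16653809, plus strand, 5 exons), a transcribed pseudogene of the phosphatase gene TPTE, had 11 and 11 counts against 115 and 110, a log2 fold change of 3.48 (2.60 to 4.54). In both, every HgCl2 column was above every EtOH column, as in 48.95% of all well-counted transcripts.

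ENSG00000276573, a stretch of 223 bases inside the gene of the RAS-like protein RAP2A and on its strand, had 13 and 11 counts against 94 and 96, a log2 fold change of 3.11. ENSG00000272755 (chr1:149264252-149264816, single exon) had 33 and 40 against 221 and 217 (2.72). LINC00662 (ENST00000658434, chr19:27697254-27793703, minus strand) had 26 and 25 against 136 and 147, a log2 fold change of 2.61, and over all transcripts of its gene the log2 fold change was 1.33. None of these columns overlapped between the groups, as was so in most well-counted transcripts.

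GLIPR1-AS1 (ENST00000547326, chr12:75483454-75489820, minus strand) runs opposite an intron of GLIPR1, a gene of a secreted and membrane protein of the CAP family, and had 25 and 17 counts against 112 and 107, a log2 fold change of 2.52. HOTAIRM1 (ENST00000593300, chr7:27099619-27100265, plus strand) lies in the HOXA cluster of developmental transcription factors and is known from myeloid cells. It had 30 and 18 counts against 109 and 103, a log2 fold change of 2.28 (1.64 to 2.99). The other members among the 12 with the largest rise were ENSG00000287899, LINC01885, ENSG00000260948, ENSG00000270659 and 1 transcript of ZFPM2-AS1, with log2 fold changes of 2.10 to 2.58.

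**Figure D2:**
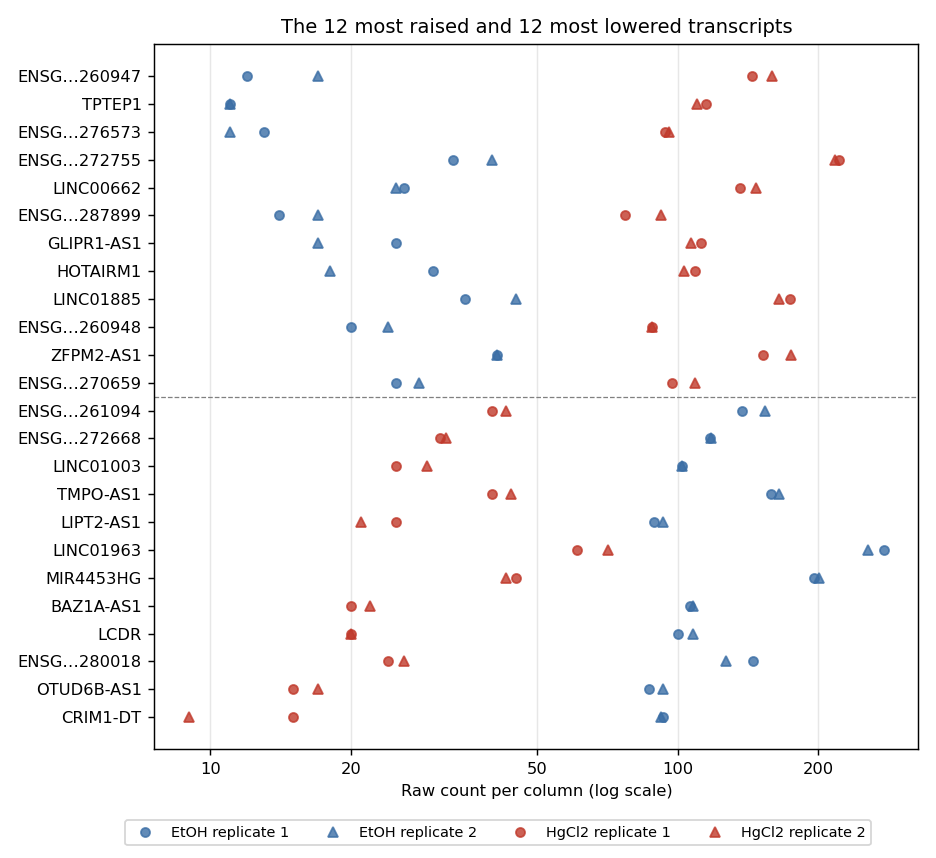
Raw counts (horizontal, log scale) in the 2 EtOH columns (blue) and the 2 HgCl2 columns (red) for the 12 members with the largest rise (above the dashed line) and the 12 with the largest fall (below it), circles for replicate 1 and triangles for replicate 2. In every one of the 24 members the blue and the red points do not overlap, which follows from picking the largest changes, and the pair of points of a group lies close together. Among all well-counted transcripts, both HgCl2 columns lay above both EtOH columns in 48.95% and below them in 41.5%.

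At the other end stood CRIM1-DT (ENST00000565283, chr2:36354744-36355471, minus strand), a single-exon transcript of 728 bases that starts beside CRIM1, the gene of a membrane protein that binds bone morphogenetic proteins, and runs away from it. The EtOH columns held 93 and 92 counts and the HgCl2 columns 15 and 9, a log2 fold change of −2.79 (−3.81 to −1.93). OTUD6B-AS1, divergent from the deubiquitinase gene OTUD6B, had 87 and 93 counts against 15 and 17, a log2 fold change of −2.34, and over its whole gene −1.25. Both HgCl2 columns were below both EtOH columns in each, as in 41.5% of all well-counted transcripts.

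ENSG00000280018 had 145 and 127 counts against 24 and 26 (log2 fold change −2.29). LCDR (ENST00000609087, chr20:18794078-18796067, plus strand, single exon), named for lysosomal cell death regulation, had 100 and 108 against 20 and 20 (−2.23). BAZ1A-AS1 (ENST00000557373, chr14:34874343-34876459, plus strand, single exon) lies opposite exonic sequence of BAZ1A, a subunit of a chromatin remodelling complex, and had 106 and 108 against 20 and 22 (−2.20). These 3 had about 100 counts or more in EtOH and under 30 in HgCl2.

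MIR4453HG (ENST00000604157, chr4:152536264-152539263, plus strand), which holds the hairpin of miR-4453 and starts beside FBXW7, the gene of a ubiquitin ligase subunit, had 196 and 201 counts against 45 and 43, a log2 fold change of −2.03. LINC01963 (ENST00000562038, chr2:216217045-216220192, plus strand, single exon) had the most counts among the 12 members with the largest fall, 276 and 256 against 61 and 71, a log2 fold change of −1.87. TMPO-AS1 (ENST00000548760, chr12:98512973-98516422, minus strand) lies opposite TMPO, the gene of the lamina-associated protein LAP2, and had 158 and 165 against 40 and 44 (−1.80). LIPT2-AS1, LINC01003, ENSG00000272668 and ENSG00000261094 completed the 12, with log2 fold changes between −1.84 and −1.66.

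The 8 members with the most counts are given next. Their changes were smaller than those above, which were picked as the largest, so this is no result about level. Counts grow with the length of a transcript, so their order is not one of level. ENSG00000291194 (chr17:20408311-20433054, 12 exons) had 1355 and 1336 counts with EtOH and 2500 and 2374 with HgCl2, a log2 fold change of 1.0. FTX (chrX:74196351-74293574, minus strand), a gene of the X-inactivation centre that carries microRNAs in its introns, had 1222 and 1165 against 2033 and 2017 (0.91). ENSG00000277701 had 848 and 896 against 1378 and 1354 (0.79), and LINC01419 had 1444 and 1476 against 2035 and 2141 (0.66). In all 4 the HgCl2 columns were above the EtOH columns, as in 48.95% of all well-counted transcripts.

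HCG11 (chr6:26521709-26527404, single exon) had 1280 and 1260 counts against 1360 and 1343, a log2 fold change of 0.23, which is near the median of well-counted transcripts. ENSG00000277991 had 1304 and 1335 against 1349 and 1417 (0.21). GABPB1-AS1 (chr15:50355467-50372202, plus strand), divergent from the gene of a subunit of the transcription factor GABP, had 1358 and 1344 against 1269 and 1236, a log2 fold change of 0.03 that turned to −0.14 when at least 10 counts were asked of every column. LINC00938 (chr12:45718046-45727860, minus strand, single exon) had 1568 and 1525 against 1277 and 1278, a log2 fold change of −0.13 that came to 0.01 without a filter on low values. The raw counts of these last 2 were lower in both HgCl2 columns, and the direction of their scaled values depended on the filter.

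Among 35 genes on a list of long non-coding RNAs known by name, 8 had a member. ZFAS1, which hosts small nucleolar RNAs, had 89 and 75 counts against 226 and 207, a log2 fold change of 1.54, on a transcript with 67 bases that no other transcript covers. LUCAT1, a lung cancer-associated transcript, had 43 and 42 against 81 and 79 (1.05), while the sum over its gene gave 0.46 and was thus not past 2-fold. CYTOR, named for an effect on the cytoskeleton, had 104 and 98 against 40 and 37 (−1.25). Each of these 3 had columns that did not overlap, as most well-counted transcripts did.

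JPX, the neighbour of FTX in the X-inactivation centre, had 118 and 135 counts against 158 and 161 (0.48). CRNDE, known from colorectal tumours, had 461 and 473 against 526 and 522 (0.31). PVT1, which lies next to MYC, had 242 and 250 against 148 and 137 (−0.64). Both FTX and TMPO-AS1, given above, were also on this list. The other 27 genes of the list, among them H19, MEG3, HOTAIR and UCA1, had no member.

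MicroRNA hairpins lay inside 7 members on the same strand, with 13 microRNA genes and 22 mature sequences. Mature microRNAs act by pairing of their seed, bases 2 to 8, with messenger RNAs, and members with the same seed form a family. The sequences of the let-7, miR-221/222 and miR-30 families and of miR-4453 are given from RefSeq on GRCh38.p14, 5′ to 3′, with the seed in capitals, because the hosts of the let-7 family moved differently and the other families each had 1 host gene.
hsa-let-7a-5p: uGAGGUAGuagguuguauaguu
hsa-let-7f-5p: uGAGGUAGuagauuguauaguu
hsa-let-7d-5p: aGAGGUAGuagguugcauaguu
hsa-let-7i-5p: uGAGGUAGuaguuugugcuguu
hsa-miR-221-3p: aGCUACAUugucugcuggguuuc
hsa-miR-222-3p: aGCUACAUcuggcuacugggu
hsa-miR-30a-5p: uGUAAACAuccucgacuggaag
hsa-miR-30c-5p: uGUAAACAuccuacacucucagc
hsa-miR-4453: gAGCUUGGucuguagcgguu
The 4 let-7 sequences share the seed GAGGUAG, miR-221-3p and miR-222-3p share GCUACAU, and miR-30a-5p and miR-30c-5p share GUAAACA.

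MIRLET7A1HG (chr9:94166258-94179564, plus strand) holds let-7a, let-7f and let-7d in its exons and had 197 and 215 counts against 258 and 270, a log2 fold change of 0.50 (0.23 to 0.77). MIRLET7IHG (chr12:62602752-62622213, plus strand) holds let-7i in its intron and had 73 and 85 against 43 and 35, a log2 fold change of −0.87 (−1.47 to −0.30). The hosts of microRNAs with the same seed were thus higher in one case and lower in the other, with intervals on opposite sides of 0. MIR222HG (chrX:45745211-45770274, minus strand), with miR-221 and miR-222 in its intron, had 487 and 489 against 816 and 855 (0.92). LINC00472 had 551 and 507 against 403 and 407 in the transcript that holds miR-30a and miR-30c (−0.24), and 414 and 418 against 204 and 200 in a shorter one that does not reach them (−0.90). The counts are of poly-A RNA and do not measure the mature microRNAs.

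The change differed with the structure and the position of the members. The 306 spliced members had a median log2 fold change of 0.31, with 50 at least 2-fold higher (16.3%) and 25 lower (8.17%). The 140 members of a single exon had a median of −0.14, with 17 higher (12.1%) and 24 lower (17.1%). Among other well-counted transcripts the 4485 spliced ones had a median of 0.22, with 11.7% higher and 5.26% lower, and the 593 of a single exon a median of 0.07, with 9.27% higher and 9.44% lower. The counts by position and by name that follow stand beside 11.7% higher and 6.17% lower among all well-counted transcripts. The 227 intergenic members had a median of 0.32 (34 higher and 19 lower), and the 60 members that start within 1000 bases of a coding gene and run away from it had a median of −0.18 (6 higher and 11 lower). Members with exons opposite coding exons had a median of −0.05 (15 higher and 15 lower of 93), those opposite introns 0.14 (3 and 2 of 19), and those on the same strand inside a coding gene 0.19 (9 and 2 of 47).

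By name, 34 divergent transcripts had a median of −0.31 (2 higher and 5 lower) and 81 antisense transcripts 0.19 (16 and 10). The 59 LINC transcripts had a median of 0.24 (7 and 7), and 196 members known by an identifier alone had 0.23 (34 and 20). The divergent transcripts were the only name class of more than 5 members whose median was below 0, and they stayed below the median of 0.20 of well-counted transcripts.

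**Figure D3:**
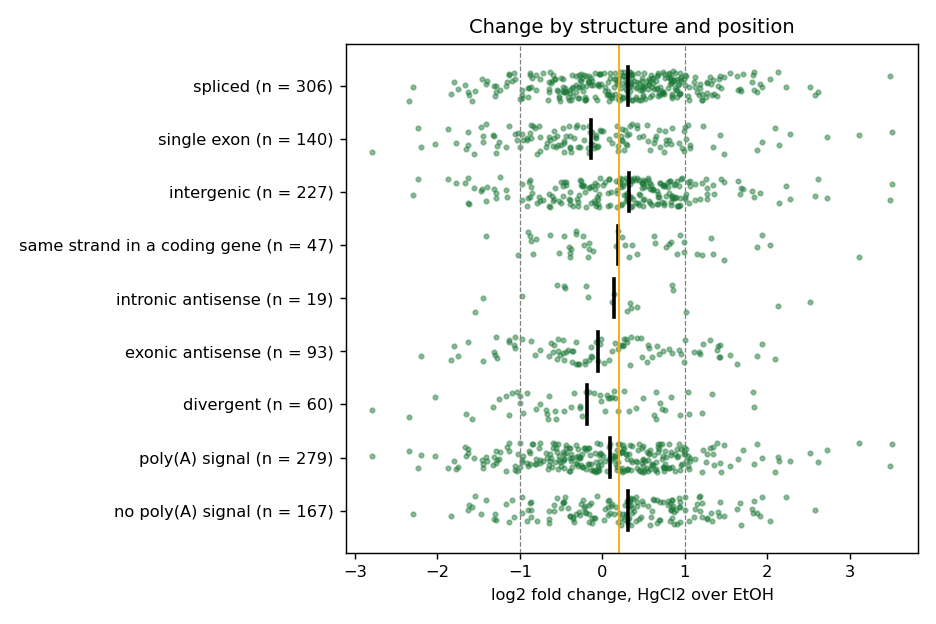
Log2 fold change of HgCl2 over EtOH (horizontal) for each member in the fit, grouped by number of exons, by position relative to protein-coding genes, and by the presence of a poly(A) signal in the last 50 bases; points are transcripts, spread vertically at random, and black bars are medians. The orange line is the median of all well-counted transcripts (0.20) and dashed lines mark 2-fold, and the medians of the single-exon, exonic antisense and divergent members lie below 0.

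Base composition moved with the change too. The members were ordered by GC share and cut into 4 groups of 111 or 112. From the lowest group (26.7% to 38.6% GC) to the highest (47.0% to 63.9%), the median log2 fold change was 0.43, 0.29, −0.02 and −0.10. In the lowest group 23 members were at least 2-fold higher and 6 lower, and in the highest 9 and 21. Well-counted protein-coding transcripts, cut into 4 by their own GC share, gave medians of 0.33, 0.21, 0.07 and −0.07, so the order was not particular to the long non-coding RNAs. Of 894 in each of these groups, 87 were at least 2-fold higher and 19 lower in the lowest, and 55 and 87 in the highest. Split at the median GC share of 42.1%, single-exon members had medians of 0.28 below it and −0.57 above it, and spliced members 0.42 and 0.15. The highest share of lower values was thus in GC-rich single-exon members, with 17 of 63 at least 2-fold lower and 3 higher. Among all well-counted transcripts 6.17% were lower and 11.7% higher. Whether base composition affected the counting in these libraries was not tested.

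The members also differed from other long non-coding RNA transcripts in structure. The rule named none of these traits, but a minimum count is not independent of them. The members had a median of 1554 bases that no other listed transcript covers, against 601 in the others with a count. Their median spliced length was 2337 bases, against 1140 bases for the other 6347 with a count, and their median GC share was 42.1% against 45.2%. A single exon was found in 31.5% of the members and in 19.05% of the others. The hexamer AATAAA or ATTAAA lay in the last 50 bases in 62.6% of the members, against 46.7% of the others with a count and 45.5% of those without one. Members with the signal had a median log2 fold change of 0.09 (37 higher and 34 lower of 279), and those without it 0.31 (30 and 15 of 167). These counts stand beside 11.7% higher and 6.17% lower among all well-counted transcripts. Longer transcripts gather more counts, and the share of this in the difference was not tested.

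Transcripts of the same gene did not always move together. Of the 29 genes with at least 2 members, 11 had members that differed by at least 1 in log2 fold change, and in 7 genes the interval of one member lay above 0 and that of another below. The median spread within a gene was 0.81. The spread in other well-counted genes or between members of different genes was not computed, so these counts have no background beside them. In ZFPM2-AS1, antisense to the gene of a cofactor of GATA factors, ENST00000520433 had 81 and 87 counts against 26 and 26 (log2 fold change −1.54), ENST00000509144 had 87 and 93 against 50 and 68 (−0.46), and ENST00000524045 had 41 and 41 against 152 and 175 (2.14). It was the only gene with one member at least 2-fold higher and another at least 2-fold lower. Summed over the gene, its counts were 218 and 226 against 281 and 314, a log2 fold change of 0.57.

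The following genes were picked after their values were seen. LSP1P5, a pseudogene of LSP1, had a transcript with 143 and 149 counts against 43 and 43 (log2 fold change −1.62), one with 89 and 92 against 51 and 38 (−0.88) and one with 70 and 71 against 109 and 80 (0.57). LINC01885 had a transcript with 35 and 45 against 174 and 165 (2.22) and another with 68 and 77 against 58 and 52 (−0.25). In LINC02432 all 4 transcripts were lower, from −1.63 to −0.21, and in NUTM2B-AS1 all 3 were higher, from 1.05 to 1.84. Transcripts with no base of their own seldom had a count, as given below, so the values of transcripts of a gene come mostly from different stretches of it.

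**Figure D4:**
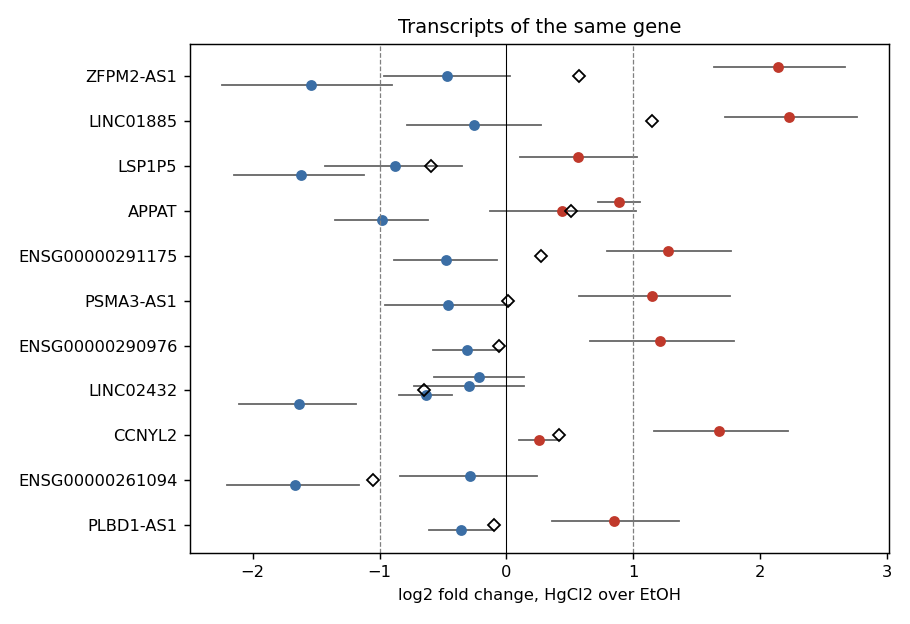
Log2 fold change of HgCl2 over EtOH (horizontal) of the members of the 11 genes whose members differ by at least 1, with 1 row of points per gene, red above 0 and blue below, and lines for the 95% counting intervals. Open diamonds are the log2 fold change of the counts summed over all transcripts of the gene, and in ZFPM2-AS1 the points lie on both sides of the dashed 2-fold lines.

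Many members are named after the coding gene they lie opposite or beside. Of 120 such members, with 108 partner genes, 39 had a partner whose main transcript had a mean of at least 50 counts. In 5 of the 39 the long non-coding RNA was at least 2-fold higher and in 6 at least 2-fold lower. The main transcript of the partner was past 2-fold in none of these 11, where 12.9% of all well-counted protein-coding transcripts were past it either way. These main transcripts had mean counts of 163 to 7461, most of them above 500. From 500 counts up, 2.52% of all transcripts were at least 2-fold higher and 0.995% lower, so no conclusion is drawn from the absence. Other transcripts of some of these partners were past 2-fold, where 53.3% of all transcripts in the fit, many of them with few counts, were past it either way. For CRIM1 2 of 3 were higher, for TMPO 2 of 5 were lower and for RNF139 1 of 2 was lower. For ANKRD10 2 of 8 were higher and 1 lower, for RAD21 1 of 4 was higher, and for ZNF529 1 of 3 was higher and 1 lower. CRIM1 had 4206 and 4226 counts against 3227 and 3144 (log2 fold change −0.26), against −2.79 for CRIM1-DT. TMPO had 2340 and 2291 against 2211 and 2239 (0.09), against −1.80 for TMPO-AS1. GLIPR1 had 343 and 343 against 567 and 587 (0.89), against 2.52 for GLIPR1-AS1.

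Besides GLIPR1-AS1, the higher members of such pairs were ANKRD10-IT1 (1.32, partner 0.10), RAD21-AS1 (1.11, partner −0.28), GTF2A1-AS1 (1.40, partner 0.41) and MRPS30-DT (1.34, partner 0.53). The lower ones were PNISR-AS1 (−1.29, partner 0.26), RNF139-DT (−1.33, partner 0.32), AP1AR-DT (−1.04, partner 0.77) and ZNF529-AS1 (−1.13, partner 0.16), beside CRIM1-DT and TMPO-AS1. Of the partners of other members with a large change, OTUD6B and LIPT2 had main transcripts of 2 to 8 and 23 to 34 counts per column, and ZFPM2 and BAZ1A had none in the fit. Over all partner genes, 125 transcripts were in the fit, 25 at least 2-fold higher and 29 lower, beside 19.2% and 34.1% of all transcripts in the fit, and among the 55 with a mean of at least 50 counts 6 were higher and 2 lower, beside 11.7% and 6.17% of all at that level.

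**Figure D5:**
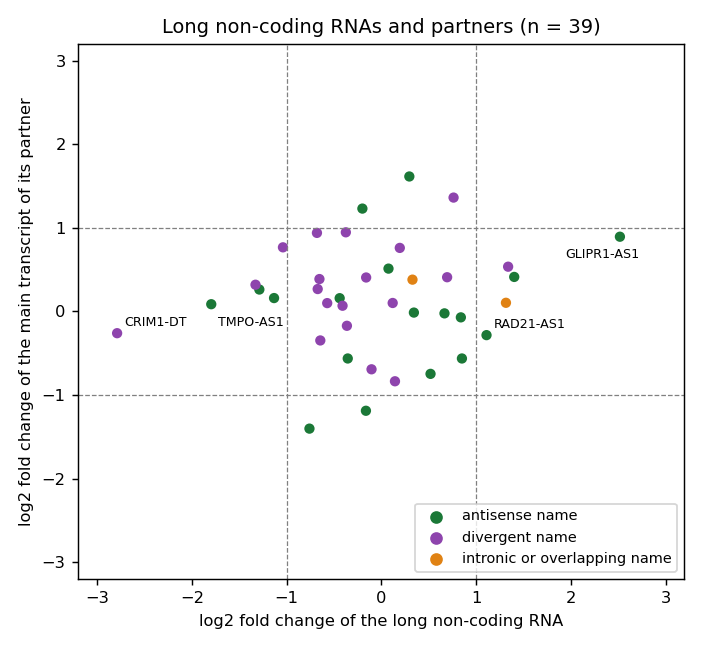
Log2 fold change of HgCl2 over EtOH of 39 long non-coding RNAs named after another gene (horizontal) and of the main transcript of that gene (vertical), 1 point per long non-coding RNA, with colours for the kind of name. Dashed lines mark 2-fold, and the 11 points past a vertical line all lie between the horizontal ones.

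Reads of overlapping genes bear on some members. In 153 members an exon overlapped an exon of another gene on the opposite strand, and in 95 it overlapped a protein-coding exon. The counting took account of the strand, as the shares that follow show. Whether the libraries kept the strand of the RNA cannot be read from these shares. The paper calls the sequencing directional, and this was not tested. Of 1528 transcripts with at least 150 bases of their own on their strand but none when both strands are considered, 23.5% had a count, close to the 25.3% of 26444 transcripts with 150 to 300 own bases on both, whereas 1.10% of 76836 transcripts with no own base had one. In the GENCODE 44 models, 9 members, JPX among them, had no own base when both strands are considered and 5 had none on their own strand, and their values are the least certain. ENSG00000224698 and ENSG00000238122 had the same counts in every column (86, 66, 101 and 108), so their reads could not be told apart.

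Genes of the pathways that remove long non-coding RNAs were listed as well. A first list held 19 genes, those of the nuclear exosome and its adaptors together with XRN2. Of these, 9 transcripts had a mean of at least 50 counts, with 1 higher and 1 lower by at least 2-fold, beside 11.7% and 6.17% of all transcripts at that level. The higher one was of ZCCHC7, a subunit of the TRAMP adaptor complex, with 23 and 24 counts against 125 and 119 (log2 fold change 2.51), and the lower one of MTREX, the helicase of the exosome, with 122 and 127 against 40 and 39 (−1.51). Of 10 genes of nonsense-mediated decay, 6 transcripts had that level, none was at least 2-fold higher, and 1 of SMG5 was lower, with 95 and 103 counts against 40 and 37 (−1.22). Without a limit on the mean count, 31 transcripts of the first list gave 6 higher and 10 lower and 13 of the second gave 1 and 5, beside 19.2% and 34.1% of all transcripts in the fit.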

How the data were processed

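The deposited table of raw counts per transcript and the deposited table of FPKM values were used. Per the labels and the paper, the authors trimmed reads with Trim Galore, used STAR 2.5.4b for alignment (GRCh38, Ensembl 98), counted reads per transcript with Rsubread, and made the deposited FPKM values from these counts with DESeq2 1.26.0. The counting options, strand included, are not given in the sources used here. The tables hold 227368 transcripts, of which 223558 were found in GENCODE 44, and for 416 of the 447 members the length behind the FPKM lay within 1% of that of GENCODE 44. Total counts were 4720978 to 5053120 per column.

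Log2 fold changes came from the quasi-likelihood fit of edgeR 4.0.16 with TMM scaling in R 4.3.3, run on the 17547 transcripts whose mean FPKM passed 1 in either group, and a change of at least 2-fold was counted. Alternatives used DESeq2 1.42.0 and limma 3.58.1, other filters and scales, a replicate block and each column left out. This step was first tested on simulated data. Intervals were computed with scipy 1.17.1 in Python 3.11.15, and figures with matplotlib 3.10.9. Own bases are exonic bases that no other listed transcript covers.

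The members and the lists were chosen with earlier results of these data known. Named are the 12 members with the largest and the 12 with the smallest log2 fold change, the 8 with the most counts, members of a list of known genes or named as microRNA hosts, the 3 nearest each side of the count minimum, transcripts of a gene that are 2-fold apart in both directions, and partner genes.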

Additional observations from a re-analysis of the deposited data

How the results depend on the processing

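With the replicate number as a block (replicate block), 67 members were at least 2-fold higher and 49 lower with a median of 0.20, as without it; the columns share a number only, so this is no paired result. Leaving out 1 column at a time gave 67 to 70 higher, 49 to 55 lower and medians of 0.20 to 0.23. The median was 0.030 when each column had to hold 10 counts, 0.34 with no filter beyond a count, 0.35 on log2(FPKM + 1) and 0.38 on log2(FPKM + 0.1), and the median of all well-counted transcripts moved with it, to 0.030, 0.34, 0.35 and 0.38. On log2(FPKM + 1), 27 members were lower. Of members with a mean of at least 100 counts, 20 of 227 were higher and 16 lower, with at least 30 counts 139 and 109 of 717, and with no exon overlap on the opposite strand 43 and 28 of 294, since each rule changes how many members there are. Summed per gene, 51 of 405 were higher and 45 lower.

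Of the 116 members past 2-fold, 79 (52 higher and 27 lower) stayed past it on the same side in all 14 other settings fitted per transcript, and all 116 kept their sign. Of 614 alternative values of the 41 named members, 567 lay inside the counting interval. Partner transcripts at least 2-fold higher and lower numbered 9 and 5 under the 10-count filter, 60 and 94 with no filter and 7 and 11 summed per gene; 11 were lower with filterByExpr and 12 on log2(FPKM + 1). RNA turnover transcripts past 2-fold either way, 22 in the fit used here, were 6, 13, 42, 12 and 6 with at least 10 counts, filterByExpr, no filter, log2(FPKM + 1) and per gene. The cause of these shifts was not tested. Depth limits many values, since 220 of 447 members rest on a mean under 100 counts.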
